A study of Homo sapiens with 6 samples.

Results

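The 32 genes described here encode the enzymes that build nucleotides and the folate enzymes that supply carbon units for them. They were taken as a fixed list of symbols, matched to the gene symbols of the deposited matrices. All 32 were found among 36601 measured genes, and all 32 were among the 16763 genes that passed the filter on low counts. By role, 12 make purines, 7 make pyrimidines, 8 make or protect deoxynucleotides and 5 carry folate-bound carbon units.

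All cells belonged to SK-N-BE(2)-C, a human neuroblastoma cell line, so each group is the same single line in culture. They were profiled with Seq-Well S3, a method that isolates each cell with a barcoded bead in a tiny well. There were 3 groups of 2 libraries: cells given DMSO, cells given TSA and cells given E6R. DMSO is the usual solvent control. The study's design text describes both agents as HDAC inhibitors, that is, inhibitors of histone deacetylases. TSA is the usual abbreviation of trichostatin A, which blocks the enzymes' catalytic activity. What E6R is chemically, and the dose and duration of either treatment, is not stated in the labels. Nor do they say whether the 2 libraries of a group came from separate cultures, so p-values measure only the spread between these libraries, which may be technical.

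Purine nucleotides are assembled on a ribose phosphate made by PRPS1 and PRPS2, and the folate enzymes supply formyl groups for the ring. Pyrimidines are built as a ring first and then joined to the ribose phosphate. Ribonucleotide reductase converts ribonucleotides to deoxynucleotides, and thymidylate is then made either from deoxyuridylate by TYMS or from salvaged thymidine by TK1. In proliferating cells many of these genes are known to be transcribed around the time of DNA replication, and MYC family proteins are known activators of several of them.

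A cell was a barcode with at least 500 detected genes and at most 20% of its unique molecular identifiers (UMIs) in mitochondrial genes, which left 17589 cells of 90306 barcodes. The UMIs of a gene were summed over the cells of a library, and the library sums ranged from 4206366 to 26180262 UMIs. E6R replicate 2 stood apart in that 1% of its cells held 22.9% of its UMIs. Mitochondrial genes took 1.51% to 1.55% of the UMIs in the E6R libraries and 5.83% to 9.71% in the other libraries. All 11 neuroblastoma markers were detected. Summed over 9 markers of other cell types, the level was 98.9 to 194 CPM (UMIs scaled to a common library total) under DMSO, 109 to 175 CPM under TSA and 116 to 361 CPM under E6R, and the blood marker PTPRC was at 0 to 0.57 CPM. The mesenchymal marker DCN was at 56.9, 63.0 and 165 CPM in the libraries numbered 1 and at 1.91, 28.99 and 1.92 CPM in those numbered 2 (DMSO, TSA and E6R in that order). Between any pair of libraries, 11 to 58 cell barcodes were shared, at most 2.11% of a library. Levels below are CPM scaled by TMM factors, which set the libraries' typical gene to a common level, and are not divided by gene length, so they are compared between libraries and not between genes. In such sums, fewer cells that express a gene and less RNA per cell cannot be told apart.

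Under TSA, the thymidylate steps moved in opposite directions. TYMS and DTYMK fell and TK1 rose, while CTPS2 fell the most among the pyrimidine genes and IMPDH1 and IMPDH2 changed in opposite directions. In all, 10 of the 32 genes passed an adjusted p of 0.05 against DMSO (edgeR's quasi-likelihood test, Benjamini-Hochberg adjustment over all genes tested), 4 of them higher and 6 lower. Of all 16763 genes, 29.7% passed, 16.2% higher and 13.5% lower, so the share among the 32 genes was near the background. The median log2 fold change was -0.20 over the 32 genes and -0.01 over all genes. The TSA libraries lay above both DMSO libraries for 12 of the 32 genes and below both for 16, against 36.7% and 34.6% of all genes. With scaling by total counts alone, which moved the median of all genes to -0.32, the calls among the 32 genes were 2 higher and 11 lower, and those among all genes were 1717 higher and 3361 lower in place of 2720 and 2255.

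Under E6R, no gene of the 32 passed against DMSO, where the background was 0% of 16763 genes. Of the 32 fitted values, 31 were higher (30 with scaling by total counts), against 52% of all genes. The median log2 fold change was 0.57 over the 32 genes and 0.03 over all genes, and with scaling by total counts 0.43 and -0.10. At an unadjusted p under 0.05, 17 of the 32 genes and 17.4% of all genes passed. All 17 were higher, as were 8.04% of all genes at that p. DESeq2, the alternative test, called 9 of the 32 genes, all higher, against 2.27% of the genes it tested called higher. Against TSA, 21 of the 32 genes passed in edgeR, where the background was 38.2% of all genes. Of those, 19 were higher under E6R, against 18.7% of all genes, and 2 were lower, against 19.5%. The calls for TYMS, TK1, DTYMK, CTPS2, CTPS1, GMPS and DUT held in all 14 alternative ways of processing. The other 14 were lost without TSA replicate 2, and 9 of them (PAICS, IMPDH1, CAD, NME1, NME2, RRM1, DCK, MTHFD1 and MTHFD1L) also without TSA replicate 1. Calls were also lost with cells thinned to 1000 UMIs each for DCK, RRM1, MTHFD2 and NME2, without E6R replicate 2 for IMPDH1, NME1 and NME2, and for NME2 without the 5% of cells with most UMIs. The 2 contrasts of E6R share its libraries, and those of TSA share theirs, so the contrasts are not independent of each other.

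**Figure D1:**
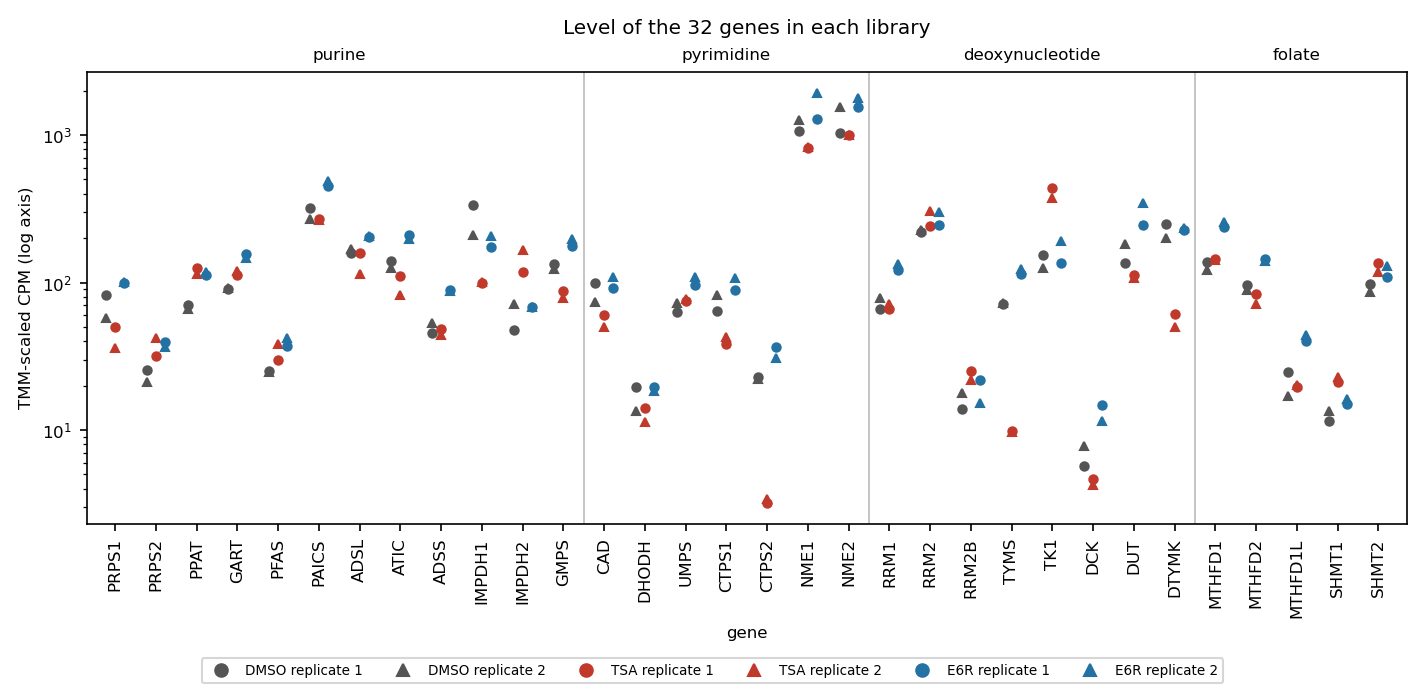
Level of each of the 32 genes in each library, in CPM on a log axis, grouped by role, with DMSO in grey, TSA in red and E6R in blue, circles for replicate 1 and triangles for replicate 2. The TSA points of TYMS, CTPS2 and DTYMK lie below both DMSO points and those of TK1 lie above both, while most E6R points lie at or above the DMSO points.

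Among the deoxynucleotide genes, TYMS (ENSG00000176890, chromosome 18, 657604 to 673578 on the plus strand, GRCh38, GENCODE 29) makes thymidylate from deoxyuridylate. Its level was 71.4 and 72.7 CPM in the DMSO libraries, 9.88 and 9.66 CPM in the TSA libraries and 115 and 123 CPM in the E6R libraries. Both TSA values were far below every other library, and both E6R values were above both DMSO values. The TSA level was 7.37-fold lower than DMSO (log2 fold change -2.88, SE 0.19, adjusted p = 0.000489), from 130 and 111 UMIs. E6R against DMSO gave 0.72 (SE 0.18, adjusted p = 0.205), which did not pass, and E6R against TSA gave 3.60 (SE 0.20, adjusted p = 0.000228). Exons of TYMS overlap those of ENOSF1 and TYMSOS on the opposite strand, and whether the authors counted by strand was not given, so reads of these genes may be shared.

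TK1 (ENSG00000167900, chromosome 17, 78174075 to 78187233 on the minus strand) phosphorylates thymidine taken up from outside the cell. Its level was 154 and 125 CPM under DMSO, 440 and 376 CPM under TSA and 136 and 192 CPM under E6R. Both TSA values were above all other libraries, and the E6R and DMSO values overlapped. TSA against DMSO gave 1.55 on the log2 scale (SE 0.24, adjusted p = 0.00392), 2.92-fold higher, and E6R against TSA gave -1.31 (SE 0.24, adjusted p = 0.00448).

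DTYMK (ENSG00000168393, chromosome 2, 241675742 to 241686991 on the minus strand) adds the second phosphate to thymidylate from either source. It was at 249 and 202 CPM under DMSO, 61.4 and 49.6 CPM under TSA and 227 and 233 CPM under E6R. The TSA values were separate from the other 4 libraries, among which E6R fell inside the range of DMSO. The TSA level was 4.06-fold lower than DMSO (log2 fold change -2.02, SE 0.21, adjusted p = 0.00115).

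The sequences before the starts of the genes with a call under TSA in every alternative processing, TYMS, TK1, DTYMK and CTPS2, are shown for that reason, and that of RRM1 because it holds matches to the motifs searched. Each is the longest stretch within 250 bases before the RefSeq start (GRCh38.p14) with no untranslated or coding exon in GENCODE 29. They are printed 5′ to 3′ on the strand of the gene, with motif matches in capitals: chr18:657403-657603 plus for TYMS, chr17:78187234-78187316 minus for TK1, chr2:241686992-241687065 minus for DTYMK, chrX:16712670-16712721 minus for CTPS2 and chr11:4094435-4094684 plus for RRM1.
TYMS: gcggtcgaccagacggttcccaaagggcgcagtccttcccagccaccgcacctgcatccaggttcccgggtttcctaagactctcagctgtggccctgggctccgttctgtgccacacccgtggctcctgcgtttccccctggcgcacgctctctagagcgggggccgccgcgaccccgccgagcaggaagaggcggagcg
TK1: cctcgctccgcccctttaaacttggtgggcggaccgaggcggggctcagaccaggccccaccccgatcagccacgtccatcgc
DTYMK: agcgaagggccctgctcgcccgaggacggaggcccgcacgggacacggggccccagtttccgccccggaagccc
CTPS2: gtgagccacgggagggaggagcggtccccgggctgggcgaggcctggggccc
RRM1: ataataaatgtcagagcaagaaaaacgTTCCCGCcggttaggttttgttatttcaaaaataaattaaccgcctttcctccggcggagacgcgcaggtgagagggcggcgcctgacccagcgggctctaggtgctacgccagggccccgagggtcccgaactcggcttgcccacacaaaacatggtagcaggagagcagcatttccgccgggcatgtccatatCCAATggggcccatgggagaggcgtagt

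The motifs were CACGTG (the E-box), TTTGGCG and GCGGGAA (E2F type) and CCAAT (the CCAAT box), searched on both strands in the whole 250 bases before the start, and none of them contains another. Promoters of 28 of the 32 genes were matched in the RefSeq table of 35116 promoters, with ADSS under its symbol ADSS2. CACGTG was found in 6 of the 28 (ATIC, PPAT, DCK, MTHFD1L, MTHFD1 and DHODH) and in 6.34% of all promoters. GCGGGAA was found in 4 (DCK, RRM1, TYMS and PRPS2) and in 5.52% of all promoters. In TYMS it began 39 bases before the start, outside the stretch printed above, and in RRM1 it lay on the other strand, 223 bases before the start, and a CCAAT began 28 bases before the start. TTTGGCG was found in 1 of the 28 (GMPS; 1.59% of all promoters) and CCAAT in 12 (32.01% of all promoters). These are matches of letters, with no measurement of binding. DTYMK held 2 matches to CCAAT, 92 and 24 bases before the start, both outside the stretch printed above. TK1 and CTPS2 held none of these letters in their windows.

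Ribonucleotide reductase is built from RRM1, its large subunit, and either RRM2, the small subunit of dividing cells, or RRM2B, a small subunit known to be induced through p53. RRM2 was at 219 and 228 CPM under DMSO, 242 and 307 CPM under TSA and 245 and 301 CPM under E6R. Both treatments lay above DMSO without overlap, but neither difference passed (TSA 0.30, SE 0.21, adjusted p = 0.313, and E6R 0.29, SE 0.21, adjusted p = 0.505, both on the log2 scale). RRM1 was at 66.5 and 78.0 CPM under DMSO, 66.6 and 71.9 CPM under TSA and 121 and 134 CPM under E6R. The TSA values sat within the DMSO range and the E6R values above all others. E6R against TSA gave 0.88 (SE 0.19, adjusted p = 0.00813), and E6R against DMSO gave 0.82 (SE 0.19, adjusted p = 0.205). RRM2B was at 13.8 to 25.3 CPM in the 6 libraries, with no call.

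DUT, which removes deoxyuridine triphosphate before it enters DNA, was at 136 and 181 CPM under DMSO, 112 and 107 CPM under TSA and 246 and 346 CPM under E6R. The 3 groups did not overlap, and E6R against TSA passed with 1.43 on the log2 scale (SE 0.24, adjusted p = 0.00339). DCK, which phosphorylates salvaged deoxycytidine, was read at 27 to 305 UMIs per library, the least of the 32 genes in the DMSO libraries. Its level was 5.74 and 7.84 CPM under DMSO, 4.63 and 4.27 CPM under TSA and 14.7 and 11.5 CPM under E6R. The E6R values were the highest, and E6R against TSA passed with 1.55 (SE 0.34, adjusted p = 0.00971). With cells thinned to 1000 UMIs each it was 0.84 (adjusted p = 0.227) and did not pass. An exon of DCK overlaps one of MOB1B on the same strand.

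**Figure D2:**
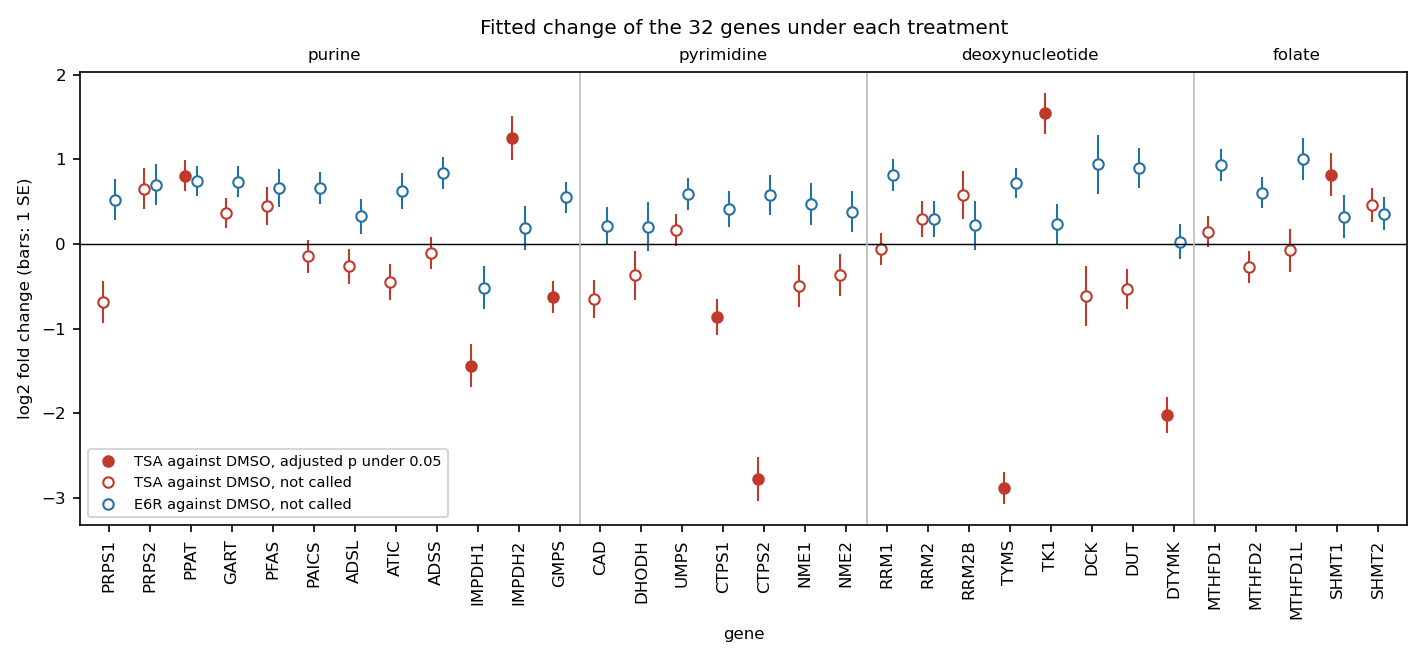
Fitted log2 fold change of each of the 32 genes against DMSO, with bars of 1 SE, for TSA in red and E6R in blue, where filled points passed an adjusted p of 0.05. The 10 filled TSA points lie on both sides of 0, from -2.88 (TYMS) to 1.55 (TK1), and every E6R point but that of IMPDH1 lies above 0, none of them filled.

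Among the pyrimidine genes, CTPS2 had the lowest fitted value for TSA against DMSO. CTPS1 and CTPS2 both make cytidine triphosphate from uridine triphosphate. CTPS2 (ENSG00000047230, chromosome X, 16588003 to 16712936 on the minus strand) was at 22.9 and 22.2 CPM under DMSO, 3.19 and 3.40 CPM under TSA and 36.8 and 30.8 CPM under E6R. The TSA values rested on 42 and 39 UMIs and were 6.84-fold lower than DMSO (log2 fold change -2.77, SE 0.26, adjusted p = 0.000918), and E6R against TSA gave 3.36 (SE 0.26, adjusted p = 0.000316).

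CTPS1 was at 64.6 and 82.8 CPM under DMSO, 38.4 and 43.0 CPM under TSA and 88.9 and 108 CPM under E6R. It fell under TSA too (log2 fold change -0.86, SE 0.21, adjusted p = 0.0208), by less than CTPS2 in these fits; the difference between the genes was not tested. The CTPS1 call was lost without DMSO replicate 2, without either TSA library and with cells thinned to 1000 UMIs each (adjusted p up to 0.154). CAD, which carries out the opening steps of pyrimidine synthesis, was at 98.6 and 74.2 CPM under DMSO, 60.6 and 49.8 CPM under TSA and 91.7 and 109 CPM under E6R. The TSA values were the lowest, at -0.64 against DMSO (SE 0.22, adjusted p = 0.0618), which did not pass, and E6R against TSA passed at 0.86 (SE 0.22, adjusted p = 0.0178). Of the other 4, the mitochondrial DHODH, UMPS, which makes the first pyrimidine nucleotide, and the diphosphate kinases NME1 and NME2 had no call against DMSO. NME1 (0.97) and NME2 (0.75) were higher under E6R than under TSA. Reads of NME1 and NME2 may also come from their readthrough transcript, whose exons overlap both.

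Among the 12 purine genes, the pair of isoenzymes that commit inosinate to guanine nucleotides diverged under TSA. IMPDH1 was at 336 and 209 CPM under DMSO, 99.8 and 101 CPM under TSA and 175 and 206 CPM under E6R. It was 2.71-fold lower under TSA (log2 fold change -1.44, SE 0.26, adjusted p = 0.00612), although the 2 DMSO libraries were themselves apart. It was the only one of the 32 genes with a fitted value below 0 under E6R (-0.51, SE 0.25, adjusted p = 0.333). IMPDH2 was at 47.6 and 71.7 CPM under DMSO, 118 and 166 CPM under TSA and 67.9 and 68.2 CPM under E6R. It was 2.38-fold higher under TSA (log2 fold change 1.25, SE 0.26, adjusted p = 0.0109), and the E6R values fell within the DMSO range. Without TSA replicate 2 neither IMPDH gene passed. IMPDH1 was also lost without TSA replicate 1, and IMPDH2 without DMSO replicate 1.

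**Figure D3:**
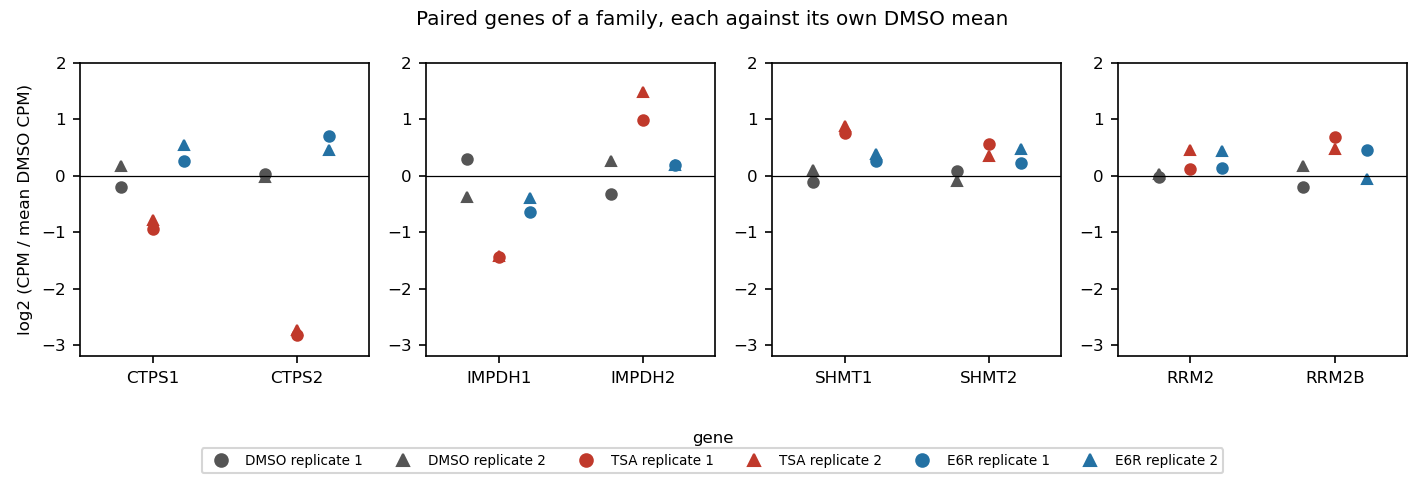
Log2 of the CPM of each library over the mean DMSO CPM of the same gene, for pairs of genes of a family, with DMSO in grey, TSA in red and E6R in blue, circles for replicate 1 and triangles for replicate 2. The TSA points of IMPDH1 and IMPDH2 lie on opposite sides of 0, and those of CTPS2 lie lower than those of CTPS1. All points of CTPS1, SHMT1, SHMT2, RRM2 and RRM2B stay within 1 unit of 0.

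GMPS, which makes guanylate from xanthylate, the product of the IMPDH enzymes, was at 133 and 123 CPM under DMSO, 87.4 and 78.4 CPM under TSA and 178 and 197 CPM under E6R. The 3 groups did not overlap. It fell under TSA (log2 fold change -0.62, SE 0.18, adjusted p = 0.0373). The GMPS call was lost without any 1 of the DMSO or TSA libraries and with all deposited barcodes. E6R against TSA passed at 1.18 (SE 0.18, adjusted p = 0.00248). PPAT, the committed step of the purine pathway, rose under TSA (0.81, SE 0.18, adjusted p = 0.0135). That call too was lost without any 1 of the 4 DMSO and TSA libraries, under scaling by total counts and with cells thinned to 1000 UMIs each.

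GART, which uses a folate-borne formyl group early in the ring, was at 89.9 and 91.6 CPM under DMSO, 113 and 120 CPM under TSA and 157 and 146 CPM under E6R. The 3 groups did not overlap, and no contrast of GART passed. ATIC, which closes the purine ring, was at 140 and 125 CPM under DMSO, 112 and 82.2 CPM under TSA and 211 and 198 CPM under E6R. ADSS, which takes inosinate toward adenylate, was at 45.7 and 53.2 CPM under DMSO, 48.1 and 43.9 CPM under TSA and 89.7 and 87.7 CPM under E6R. PRPS1 was at 81.8 and 57.4 CPM under DMSO, 50.3 and 36.2 CPM under TSA and 99.9 and 100.3 CPM under E6R. For ATIC, ADSS and PRPS1 the E6R values were the highest of the 6 libraries, and E6R against TSA passed at 1.08, 0.95 and 1.21 on the log2 scale (adjusted p = 0.00606, 0.00623 and 0.00703). PAICS also passed against TSA (0.80, adjusted p = 0.0131), while PRPS2, PFAS and ADSL passed in no treatment contrast. An exon of GART overlaps one of SON on the opposite strand.

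Among the 5 folate genes, MTHFD2 and MTHFD1L of the mitochondrion and MTHFD1 of the cytosol act on folate-bound carbon units. MTHFD2 was at 96.7 and 89.7 CPM under DMSO, 83.2 and 71.2 CPM under TSA and 144 and 139 CPM under E6R. MTHFD1L was at 24.9 and 17.0 CPM under DMSO, 19.6 and 20.2 CPM under TSA and 39.9 and 44.1 CPM under E6R. Both had their highest values under E6R, and E6R against TSA passed for MTHFD2 (0.88, SE 0.18, adjusted p = 0.00786), MTHFD1L (1.08, SE 0.25, adjusted p = 0.0113) and MTHFD1 (0.79, SE 0.18, adjusted p = 0.0120).

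The serine hydroxymethyltransferases load the carbon units onto folate. SHMT2, the mitochondrial enzyme, was at 98.2 and 86.8 CPM under DMSO, 137 and 118 CPM under TSA and 108 and 129 CPM under E6R. Both treatments were above DMSO without overlap, and no contrast passed (TSA 0.46, SE 0.20, adjusted p = 0.111). SHMT1, the cytosolic enzyme, rose under TSA (0.82, SE 0.25, adjusted p = 0.0441), from 54 and 70 UMIs under DMSO to 278 and 262 UMIs, in libraries that were also deeper. That call was lost in 9 of 14 alternatives, among them each removal of a DMSO or TSA library.

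The E6R values of the 32 genes lay above DMSO without overlap for 25 genes, against 24.6% of all genes, and below for 1, IMPDH1, against 22.7%. The largest fitted differences were MTHFD1L (1.01, 2.01-fold), DCK (0.94), MTHFD1 (0.94, 1.91-fold), DUT (0.90) and ADSS (0.84), with adjusted p from 0.205 to 0.236. By role, 11 of 12 purine, 7 of 7 pyrimidine, 8 of 8 deoxynucleotide and 5 of 5 folate genes had fitted values above 0, with medians of 0.64, 0.42, 0.51 and 0.61. Summed CPM of the purine genes was 1475 and 1282 under DMSO, 1242 and 1205 under TSA and 1821 and 1892 under E6R. The folate sum was 369 and 328, 404 and 376, and 545 and 587 CPM in the same order. Both sums were highest in the E6R libraries. The fitted value stayed above 0 for 29 to 31 genes when each library was left out in turn. With cells thinned to 1000 UMIs each, 29 values were above 0 and the median of the 32 genes was smaller, at 0.34. Without the 5% of cells with most UMIs it was 0.47, with 30 values above 0. On simulated counts at the depth and spread of the main fit, the E6R fit recovered 15% of genes changed 2-fold and 91% of genes changed 4-fold.

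A list of 30 DNA replication genes, none of them among the 32, was summed in the same libraries. Its sum was 3259 and 2557 CPM under DMSO, 3178 and 3565 CPM under TSA and 3924 and 4744 CPM under E6R. The E6R libraries were the highest. For E6R against DMSO, 28 of the 30 fitted values were above 0, where 52% of all genes were, with a median of 0.68. None of the 30 passed in edgeR, where 0% of all genes did. An unadjusted p under 0.05 was found for 22, against 17.4% of all genes. DESeq2 called 10, all higher, against 2.27% of the genes it tested called higher. The part of this list in the E6R values of the synthesis genes was not tested across libraries, but both could be looked at within cells that were low or high in the replication list.

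Cells with at least 1000 UMIs were thinned to 1000 UMIs each and ranked within each library by their replication list UMIs. Each library's ranking was split into 3 equal classes. The lowest was then compared with the highest, with the library as a block and all of those cells' UMIs summed. Of the 32 genes, 18 passed, all of them higher in the high class, against 10.4% of the 14428 genes tested, 5.52% of them higher. The deoxynucleotide genes gave 6 calls of 8, the purine genes 8 of 12, and the pyrimidine and folate genes 2 each. The classes are ranges of a score and not cell types, and 142 to 575 cells of a library sat at each limit. RNA set free from other cells is counted in both classes and its part was not tested.

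RRM2 showed the largest separation, a log2 difference of 0.87 (SE 0.14, adjusted p = 0.00018). From low to high class it went from 124 to 342 CPM in DMSO replicate 1, 130 to 352 in TSA replicate 1 and 136 to 343 in E6R replicate 1. In the libraries numbered 2 it went from 216 to 233 CPM under DMSO, 286 to 320 under TSA and 217 to 362 under E6R. All 6 libraries were higher in the high class, and the libraries numbered 1 were the more separated. TYMS followed at 0.84 (SE 0.12, adjusted p = 5.85e-05), TK1 at 0.67 (SE 0.08, adjusted p = 1.63e-05) and RRM1 at 0.59 (SE 0.09, adjusted p = 0.000215), each higher in 6 of 6 libraries. RRM2B was at -0.16 (SE 0.11, adjusted p = 0.426) and higher in 2 of 6 libraries. NME2, ADSL and CTPS2 were at 0.00, 0.01 and 0.13 and did not pass. Without E6R replicate 1 the calls among the 32 genes numbered 12, and those among all genes fell to 4.83%. With sums of the thinned counts, 7 of the 31 of them tested and 4.28% of all genes passed.

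**Figure D4:**
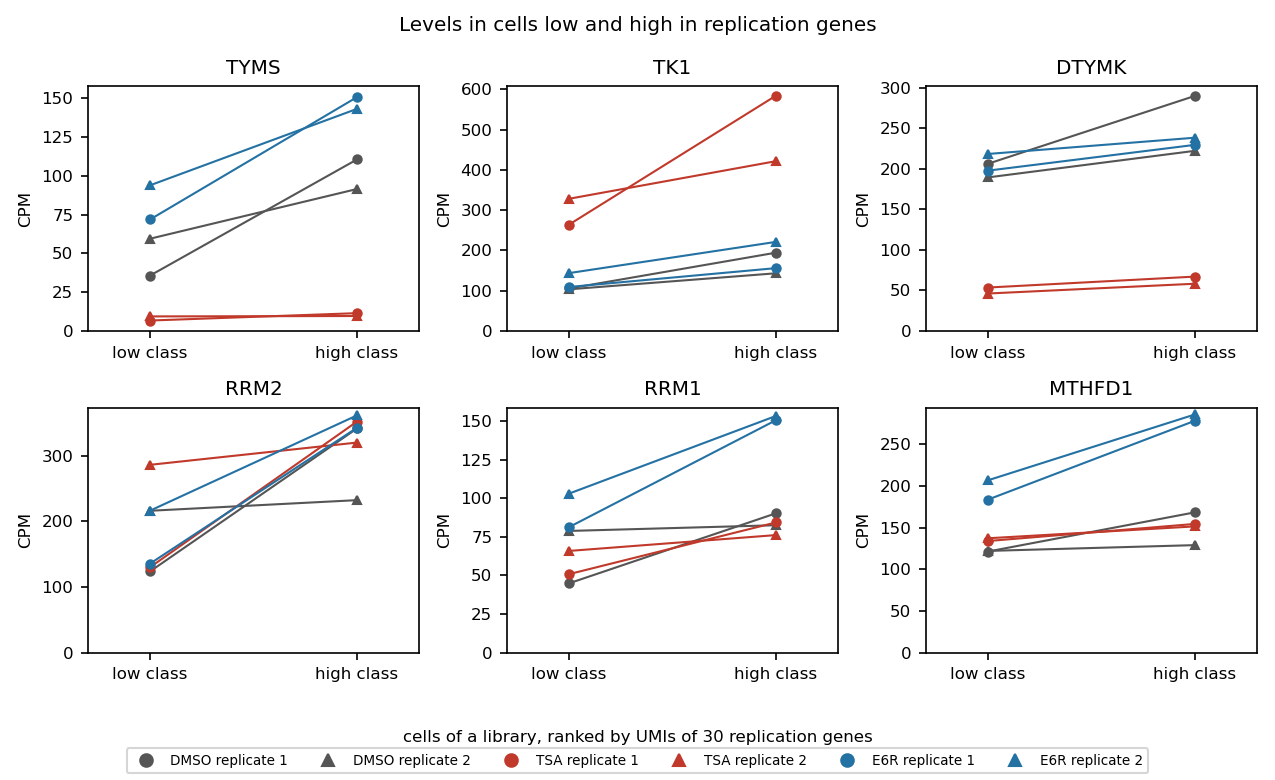
CPM of 6 genes in the class of cells lowest and the class highest in replication genes, with a line for each library, DMSO in grey, TSA in red and E6R in blue, circles for replicate 1 and triangles for replicate 2. Both TSA lines lie below all others for TYMS and DTYMK and above all others for TK1, and lines of all groups overlap for RRM2.

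The differences between treatments could be read within these classes. Because cells were ranked within each library, the classes were not matched for replication level across treatments. Thinned cells of the low class held on average 0.83 and 0.90 list UMIs under DMSO, 0.66 and 1.09 under TSA and 1.14 and 1.90 under E6R. For the high class it was 6.28 and 4.94, 5.09 and 5.12, and 6.78 and 7.56 in the same order. TYMS under TSA was at 6.76 to 11.5 CPM in its 4 sums, below the lowest DMSO sum, 35.7 CPM in the low class of replicate 1. TK1 under TSA was at 264 to 584 CPM, above the highest DMSO sum of 194 CPM. CTPS2 under TSA was at 3.32 to 3.87 CPM in either class, against 22.4 to 26.7 CPM under DMSO. These TSA sums of CTPS2 held only 14 or 15 UMIs each. Every TSA sum lay below every DMSO sum for 11 of the 32 genes and above for 6, against 21.3% and 26.1% of all genes. The E6R sums lay above the DMSO sums without overlap in both classes for 18 of the 32 genes, against 12.8% of all genes. For 9 genes (GART, PFAS, ADSL, ATIC, ADSS, CTPS2, DCK, MTHFD1 and MTHFD1L) every E6R sum lay above every DMSO sum, against 9.07% of all genes. Some DMSO sums were small, at 5 to 14 UMIs for DCK, 20 to 45 for PFAS and 21 to 51 for MTHFD1L. MTHFD1 was at 184 to 286 CPM in its E6R sums and at 121 to 168 CPM in its DMSO sums. These values within classes are a description with no test.

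A further list of 52 genes covered folate supply and serine, salvage and interconversion of nucleotides, and glutamine and phosphate supply, and 51 of them were tested. Under TSA, 2 were higher and 8 were lower than DMSO, where 16.2% and 13.5% of all genes were. UCK2, which phosphorylates salvaged uridine and cytidine, was at 95.0 and 114 CPM under DMSO and 18.7 and 17.2 CPM under TSA (log2 fold change -2.54, SE 0.20, adjusted p = 0.000577). ITPA, which clears inosine triphosphate, was at -1.35 (adjusted p = 0.00836) and NT5C2, a nucleotidase, at -0.71 (adjusted p = 0.0291). The ITPA call was lost without TSA replicate 2, and that of NT5C2 without any 1 of the DMSO or TSA libraries and with all barcodes (adjusted p up to 0.208). MTRR, which reactivates methionine synthase, was among the higher genes, at 1.01 (adjusted p = 0.0205), a call lost without any 1 of these 4 libraries, with total counts and with thinned cells (adjusted p up to 0.132). Under E6R none of the 51 passed in edgeR, 16 had an unadjusted p under 0.05 (17.4% of all genes did), and DESeq2 called 2 higher and 2 lower. DESeq2 called 2.94% of the genes it tested in either direction and 2.27% higher. Of the 51, 37 fitted values were above 0, against 52% of all genes, and the median was 0.29. E6R against TSA gave 15 higher and 2 lower, against 18.7% and 19.5% of all genes, among them UCK2 (2.77), PSAT1 of serine synthesis (1.19) and SAMHD1, which degrades deoxynucleotides (-1.21), whose call was lost without either TSA library. SAMHD1 was at 231 and 126 CPM under DMSO, 191 and 157 CPM under TSA and 75.0 and 75.8 CPM under E6R, the lowest of the 6 libraries.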

How the data were processed

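Per the labels, 6 Seq-Well S3 libraries of SK-N-BE(2)-C cells were assigned to 3 treatments, 2 libraries each. The deposited matrices hold whole-number UMI counts per gene and barcode, not normalized. The submitters' processing notes name STARsolo 2.7.9a and GRCh38; no annotation, strand rule or choice of barcodes is given in the sources used here. Cells needed at least 500 genes and at most 20% mitochondrial UMIs; no doublet caller was run. Counts were summed per library and tested with edgeR 4.0.16 (R 4.3.3; filterByExpr, TMM, quasi-likelihood test, group only, all 6 libraries, Benjamini-Hochberg over 16763 genes, threshold 0.05). Sums for cells low and high in 30 replication genes used the same test with library as a block. Alternatives were DESeq2 1.42.0, total-count scaling, no filter, a replicate block, other barcodes, thinned cells, fewer genes and each library left out. The fits were tested on simulated data with 200 changed genes. The members' sums held 27 to 51649 UMIs; the spread between libraries exceeded counting error (chi-square per degree of freedom 19.7 to 79.3 within groups; common biological coefficient of variation 0.288). Per-library values are given for members called in a treatment contrast (the 16 with the smallest adjusted p) and for RRM2, TYMS, TK1, CAD, IMPDH2, GART, MTHFD2 and SHMT2 regardless. Other pathway genes were named from those called with a mean of at least 20 CPM. A few genes of these lists are not reported here. Members, lists and rules were chosen with earlier results of these data known. Of the gene identifiers, 34616 were in GENCODE 29, which gave coordinates and overlaps. Promoters came from RefSeq (GRCh38.p14).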

Additional observations from a re-analysis of the deposited data

Results flagged for a closer look

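The barcodes left out of the comparisons, those with under 500 genes or over 20% mitochondrial UMIs, also carried UMIs of the 32 genes, and their summed levels (CPM with no TMM scaling) were above both DMSO libraries in both E6R libraries for all 4 roles. The purine genes summed to 1553 and 1649 CPM in the left-out barcodes of E6R replicates 1 and 2, against 1442 and 1275 CPM in those of DMSO. The pyrimidine genes summed to 3229 and 3597 CPM under E6R, against 2588 and 3046 CPM. The deoxynucleotide genes summed to 957 and 1038 CPM, against 814 and 882 CPM, and the folate genes to 499 and 529 CPM, against 343 and 333 CPM. These barcodes hold too few genes or too much mitochondrial RNA to count as cells here, and how much of their RNA came from broken cells was not tested. No test was made of these sums, and the share of all genes with the same pattern in these barcodes was not computed. The scaling used all UMIs of these barcodes, mitochondrial ones included. In the cells kept, the mitochondrial share was 1.51% to 1.55% under E6R and 5.83% to 9.71% in the other libraries. The part of this scaling in the sums was not tested.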

How the results depend on the processing

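Over 1821 values of single genes under the alternatives, 1666 kept their side of the threshold (49 of these, none of them called, had the other sign), 105 lost their call, 50 gained one and 0 reversed a call. TYMS, CTPS2, DTYMK and TK1 passed against DMSO under TSA in all 14 alternatives. With total counts as the only scaling, 8 of the 10 calls among the 32 genes under TSA were kept. Leaving out each library, the calls under TSA ranged from 4 to 10 of the 32 genes and from 1416 to 6028 of all genes, lowest without TSA replicate 2. E6R against TSA ranged from 7 to 22 and from 2628 to 6385, with 12 and 3175 without TSA replicate 1; a lone library is assumed to vary like the other groups. Over all genes, thinned cells gave 4106 calls there. E6R against DMSO gave 0 of the 32 genes and 0 to 3 of all genes on leaving out each library, 9 and 424 with DESeq2, 10 and 1095 without the low-count filter, and 1 of all genes with all barcodes or without mitochondrial and ribosomal protein genes. The cause was not tested. The 9 DESeq2 calls were PPAT, GART, PAICS, ADSS, RRM1, TYMS, DUT, MTHFD1 and MTHFD1L. Between cells high and low in replication genes, leaving out each library gave 12 to 19 calls among the 32 genes, and sums of thinned counts, which hold fewer UMIs, gave 7.

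Deviations from group means correlated between libraries of the same number (r across 7515 genes, which are not independent replicates, of 0.24 for DMSO with TSA, 0.56 for DMSO with E6R and 0.17 for TSA with E6R). No label says what the 2 numbers mark, so what same-numbered libraries have in common is not known. The main fit took no account of the number. With the replicate block, calls among the 32 genes were 12 under TSA, 0 under E6R and 22 for E6R against TSA, and calls among all genes 6047, 19 and 7567. Under it PRPS1 (adjusted p = 0.0313) and CAD (adjusted p = 0.0437) passed for TSA against DMSO and ADSL (adjusted p = 0.0371) for E6R against TSA, and it changed no other call of a member. Protein identity between members of a family was planned and not run. Among the 32 genes DCK had the fewest UMIs in the DMSO libraries and the largest SE in the 3 treatment contrasts.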

Other observations

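Among the 8 further pathway genes lower under TSA, 5 fell outside the rule for naming and were picked out after their values were seen. MTHFS, which returns formylfolate to the folate pool, was at 15.7 and 16.6 CPM under DMSO, 0.99 and 0.78 CPM under TSA and 25.3 and 21.1 CPM under E6R, and TSA against DMSO gave -4.17 on the log2 scale (SE 0.34, adjusted p = 0.000633). CMPK1, which phosphorylates cytidylate and uridylate, was at 19.5 and 20.1 CPM under DMSO, 7.29 and 3.05 CPM under TSA and 31.4 and 29.3 CPM under E6R (TSA against DMSO -1.93, SE 0.40, adjusted p = 0.0102). TK2, the mitochondrial thymidine kinase, was at 8.07 and 8.22 CPM under DMSO and 2.28 and 1.83 CPM under TSA (-1.98, SE 0.36, adjusted p = 0.00683), a direction opposite to that of the cytosolic TK1. AK4 (-1.43, adjusted p = 0.0469) and NME6 (-1.16, adjusted p = 0.0476) were the others, both near the threshold.

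MYCN, one of the neuroblastoma markers, was at 394 and 313 CPM under DMSO and 215 and 291 CPM under TSA. Under E6R it was at 733 and 657 CPM, the highest of the 6 libraries. Of the other markers, PHOX2A, ISL1 and STMN2 were also highest in both E6R libraries, and the rest were not. Among all genes, 24.6% lay above DMSO without overlap under E6R, and edgeR called none of them against DMSO. Any part of MYCN in the levels of the synthesis genes was not tested.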
